A study of Mus musculus with 2 samples.

Results

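The insulin-like growth factor (IGF) genes were examined in fibro-adipogenic progenitors (FAPs) from mouse, stromal cells of muscle that can become adipocytes. They were taken by name as 1 ligand (Igf1), 2 receptors (Igf1r and Igf2r) and 6 binding proteins (Igfbp2 to Igfbp7), which made 9 of the 44291 genes in each file. All 9 were found, and all 9 had a mean FPKM of at least 1 over the libraries, the level from which a gene was compared and counted among the tested genes. FPKM is the number of reads of a gene divided by its exon length and by the depth of the library. Of the 44291 genes, 13401 reached that level.

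The study compared FAPs given platelet-rich plasma (PRP) with FAPs given vehicle, with 1 library for each, called PRP and control here. Both cultures were wild type (WT) and both were kept in the same adipogenic medium, DMEM with 20% serum (FBS), insulin at 10 μg/ml, dexamethasone at 0.25 μM and IBMX at 0.5 mM. PRP is the treatment in the labels, but the study's text describes exosomes from the PRP of young human donors, and the age of the mice behind these cultures is not in the labels. With 1 library a group there is no replicate spread and no test, so every difference is a difference between 2 libraries. Each ratio is given with a 95% interval that covers counting error only, and coordinates are of GRCm38. Insulin, the ligand of the closely related insulin receptor, was in both media at the same concentration.

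IGF1 and IGF2 are secreted growth factors that act through the receptor tyrosine kinase IGF1R, while IGF2R, which also carries mannose-6-phosphate-tagged enzymes to lysosomes, takes up IGF2 and sends it for degradation. Binding proteins hold the ligands outside the cell, prolong their life and limit or deliver them to the receptor, and proteases such as PAPP-A cut binding proteins and release the ligand. In skeletal muscle IGF1 promotes myoblast growth and fiber repair, and stromal cells are among its sources.

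Among the microRNAs of the exosome cargo, the study singles out 2, let-7f-5p and miR-16-5p, and the others were not searched here. Their sequences and the matches of these 2 in the receptor and binding protein genes are shown before the expression values. The mature mouse sequences are from RefSeq (GRCm38.p6), with the seed, bases 2 to 8, in capitals.
mmu-let-7f-5p: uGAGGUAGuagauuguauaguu
mmu-miR-16-5p: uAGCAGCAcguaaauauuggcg

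For every gene the longest 3′UTR in GENCODE M21 (GRCm38) was searched on the sense strand of the transcript for the 7 bases that pair with each seed, CTACCTC for let-7 and TGCTGCT for miR-16. A let-7 match was found in 3 of the 8 receptor and binding protein genes, Igf1r, Igf2r and Igfbp5, and in 9.85% of the 10287 tested genes with a 3′UTR. A miR-16 match was found in 4 of the 8, Igf1r, Igf2r, Igfbp3 and Igfbp4, and in 24.6% of the 10287. Igf1r and Igf2r held both, as did 4.02% of genes. The let-7 matches are printed because they lie in both receptors and in the binding protein with the lowest ratio between the libraries. They stand in 29 bases of transcript sequence with the match in capitals, and the coordinates are those of the match.
Igf1r, first (chr7:68229125-68229131, plus strand): tttcaaacatttatCTACCTCactcttgt
Igf1r, second (chr7:68233231-68233237, plus strand): ttgccagagttcatCTACCTCtgggattt
Igf2r (chr17:12683037-12683043, minus strand): acctgctccgtgccCTACCTCatctctgt
Igfbp5 (chr1:72859680-72859686, minus strand): ttccccaggtcagcCTACCTCccccaaac

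The miR-16 match of Igfbp4 is printed as that of the binding protein with the next lowest ratio. This choice followed the ratios, and the miR-16 matches of Igf1r, Igf2r and Igfbp3 are not printed.
Igfbp4 (chr11:99052156-99052162, plus strand): ccacctctgctctgTGCTGCTgcgtagag

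The lengths searched differed widely between these genes. The 3′UTR was 7267 bases in Igf1r and 4445 in Igfbp5, against a median of 1154 bases over all genes searched and of 2329 bases over those with a let-7 match. It was 209 bases in Igfbp6, 240 in Igfbp7 and 312 in Igfbp2, the 3 of the 8 with neither match. A match is a description of the letters and no evidence that the microRNA binds there, and the search was added after the expression values were known. Among the genes with a match, the FPKM ratio of PRP over control was 0.213 in Igfbp5, 0.679 in Igfbp4 and 0.768 in Igf2r. It was 0.879 in Igf1r, with 2 let-7 matches and 1 miR-16 match, and 1.03 in Igfbp3. In the 3 genes with neither match the ratio was 0.781 in Igfbp6, 0.904 in Igfbp7 and 1.38 in Igfbp2. A link between the matches and the ratios was not tested.

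The level of the IGF genes in the control library spanned from 1.74 to 210.2 FPKM. Igfbp7 and Igfbp6 led in both libraries, followed by Igf2r, and the other 6 genes lay below 10 FPKM. In the control library the order went on with Igfbp4, Igfbp5, Igf1, Igf1r, Igfbp3 and Igfbp2. Igfbp4 and Igfbp5 could not be separated there by counting error, with a ratio of 1.09 (0.972 to 1.22), nor could Igfbp3 and Igfbp2. In the PRP library it went on with Igfbp4, Igf1r, Igf1, Igfbp2, Igfbp3 and Igfbp5, where Igf1 could not be separated from Igfbp2, with a ratio of 1.06 (0.842 to 1.34), nor Igfbp2 from Igfbp3. Igfbp5 thus stood at place 5 of 9 in the control library and at place 9 in the PRP library.

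**Figure D1:**
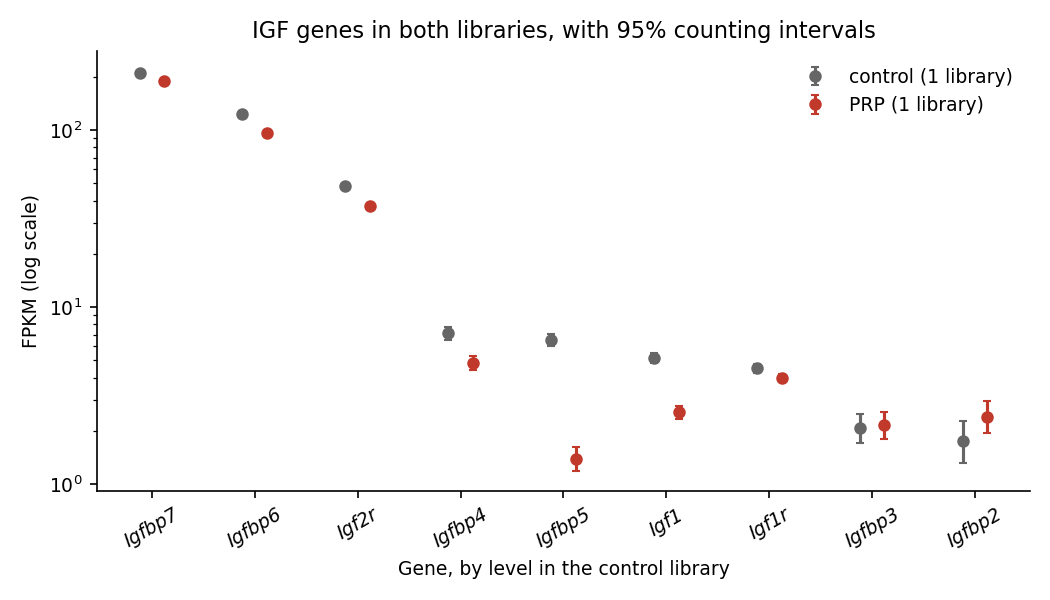
FPKM on a log axis of the 9 IGF genes in the control library (grey) and the PRP library (red), 1 library each, with 95% Poisson intervals of the fragment counts as bars. Igfbp5 has the widest gap, 6.54 in the control library and 1.39 in the PRP library, and the points of Igfbp3 and Igfbp2 have bars that overlap.

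The ligand gene Igf1 (ENSMUSG00000020053, chromosome 10, 87858265 to 87937042, plus strand) had 2.54 FPKM with PRP and 5.17 FPKM with vehicle, from 1009 and 1749 reads. The PRP level was 0.491 of the control level (0.439 to 0.548), and the log2 fold change of FPKM + 1, PRP minus control, was -0.80. Igf1 stood at place 272 from the lowest of the 13401 tested genes by this log2 fold change. The other ligand gene, Igf2, which drives fetal growth, was low in both libraries, with 1.57 against 1.98 FPKM and a ratio of 0.794 (0.644 to 0.977). Igf1 was 2.62 times the level of Igf2 in the control library (2.24 to 3.08) and 1.62 times in the PRP library (1.36 to 1.93), and these intervals did not overlap. The insulin gene Ins1 had 0 reads in both libraries, which allows up to 0.141 FPKM with PRP and 0.165 with vehicle.

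Both receptor genes were lower in the PRP library, by less than the ligand. Igf1r (ENSMUSG00000005533, chromosome 7, 67952827 to 68233668, plus strand), which encodes the signalling receptor, had 3.96 FPKM with PRP and 4.50 FPKM with vehicle. The ratio was 0.879 (0.814 to 0.950) and the log2 fold change -0.15. Igf2r (ENSMUSG00000023830, chromosome 17, 12682406 to 12769664, minus strand), which encodes the clearance and lysosomal sorting receptor, had 37.4 FPKM with PRP and 48.7 FPKM with vehicle. The ratio was 0.768 (0.744 to 0.794) and the log2 fold change -0.37. Igf2r was the more abundant receptor transcript, at 9.46 times the FPKM of Igf1r in the PRP library (8.92 to 10.0) and 10.8 times in the control library (10.2 to 11.5). The insulin receptor gene Insr had 1.58 against 2.09 FPKM and a ratio of 0.756 (0.663 to 0.861). Igf1r was 2.15 times the FPKM of Insr with vehicle (1.94 to 2.39), and the interval of that ratio with PRP, 2.25 to 2.80, overlapped it.

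The order of ligand and receptor by FPKM turned between the libraries. Igf1 was 1.15 times the FPKM of Igf1r in the control library (1.05 to 1.25) and 0.642 times in the PRP library (0.578 to 0.712). Both intervals lay away from 1, on opposite sides, but they do not cover error in the exon lengths by which FPKM divides.

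Igfbp5 had the largest difference of the 9 IGF genes. It encodes a binding protein that is held in the extracellular matrix and is known in bone and muscle. Igfbp5 (ENSMUSG00000026185, chromosome 1, 72857932 to 72874884, minus strand) had 1.39 FPKM with PRP and 6.54 FPKM with vehicle, from 336 and 1340 reads. It was 4.69-fold higher in the control library, with a PRP to control ratio of 0.213 (0.179 to 0.253). Its log2 fold change of -1.65 stood at place 16 from the lowest of the 13401 tested genes. Igfbp5 was the only IGF gene at least 2-fold different on the scale of FPKM + 1, on which 0.828% of all tested genes were at least 2-fold lower and 2.83% were 2-fold different in either direction. On that scale Igf1 was past 1.5-fold and short of 2-fold, although its ratio of plain FPKM lies just past 2-fold, so 2 of the 9 were at least 1.5-fold lower, against 4.57% of tested genes. The call of Igfbp5 depends on the pseudocount, since its log2 fold change was -0.85 with 5 added to FPKM and -2.15 with 0.1 added.

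Igfbp2 lies next to Igfbp5 on chromosome 1, with no coding gene between them and a gap of 5457 bases, and it was not lower beside it. Igfbp2 (ENSMUSG00000039323, chromosome 1, 72824503 to 72852474, plus strand), which encodes a circulating binding protein made in many tissues, had 2.40 FPKM with PRP and 1.74 FPKM with vehicle. Its ratio of 1.38 had an interval that included 1 (0.973 to 1.96), from 178 and 110 reads. Igfbp5 was 3.75 times the FPKM of Igfbp2 in the control library (2.84 to 5.03) and 0.580 times in the PRP library (0.446 to 0.759). The order of the neighbouring genes was therefore opposite in the libraries.

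The second neighbouring pair, Igfbp3 and Igfbp1 on chromosome 11, lies 3539 bases apart. Igfbp3 encodes the main carrier of IGF1 in blood. Igfbp3 (ENSMUSG00000020427, chromosome 11, 7206086 to 7213923, minus strand) had 2.15 FPKM with PRP and 2.08 FPKM with vehicle, with a ratio of 1.03 (0.799 to 1.34). A difference within that interval was not detectable at this depth. Igfbp1, a binding protein gene of liver, had 0 reads in both libraries, which allows up to 0.0981 FPKM with PRP and 0.115 with vehicle. Igfbpl1, a relative with a binding protein domain, had 1 read with PRP and 0 with vehicle.

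Igfbp4 was lower in the PRP library. It encodes a binding protein that inhibits IGF action and is the classical substrate of PAPP-A. Igfbp4 (ENSMUSG00000017493, chromosome 11, 99041244 to 99054392, plus strand) had 4.84 FPKM with PRP and 7.13 FPKM with vehicle, with a ratio of 0.679 (0.597 to 0.772) and a log2 fold change of -0.48. Igfbp5 and Igfbp4, whose ratio was 0.917 in the control library (0.817 to 1.03), stood at 0.288 in the PRP library (0.239 to 0.345).

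The abundant pair, Igfbp6 and Igfbp7, differed least among the binding proteins whose interval excluded 1. Igfbp6, which binds IGF2 in preference to IGF1 (ENSMUSG00000023046, chromosome 15, 102144362 to 102149511, plus strand), had 96.0 against 123 FPKM, a ratio of 0.781 (0.736 to 0.829) and a log2 fold change of -0.35. The study's text reports the opposite direction by RT-PCR with replicates, a higher Igfbp6 mRNA level in FAPs given PRP exosomes. It reports the same rise after transfection of let-7f-5p or miR-16-5p. The medium of those FAPs is not stated there, whereas the libraries here were labelled PRP and came from adipogenic medium, so the settings may differ. Igfbp7 (ENSMUSG00000036256, chromosome 5, 77349240 to 77408041, minus strand), a matrix protein with low affinity for IGFs, had 189.9 FPKM with PRP and 210.2 FPKM with vehicle. The ratio was 0.904 (0.867 to 0.942) and the log2 fold change -0.15. Igfbp7 was the only IGF gene whose exons overlapped another gene's, with 7.03% of its exon bases shared with Polr2b on the other strand. Whether the counting used the strand is not given in the sources used here, so reads of that stretch cannot be told apart.

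**Figure D2:**
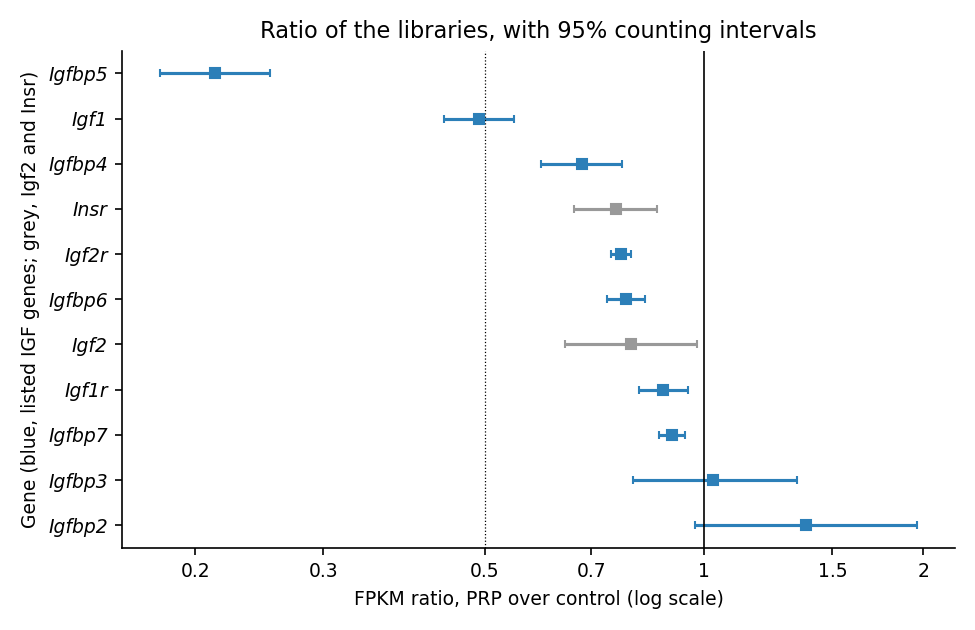
FPKM ratio of the PRP library over the control library on a log axis for the 9 IGF genes (blue) and for Igf2 and Insr (grey), with exact 95% counting intervals as bars, a solid line at 1 and a dotted line at 0.5. Igfbp5 lies at 0.213 and Igf1 at 0.491, and only the intervals of Igfbp3 and Igfbp2 reach 1.

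In all, 7 of the 9 IGF genes were lower in the PRP library and 2 were higher, while 49.1% of all tested genes were lower. The interval excluded 1 on the lower side for the same 7 genes and on the higher side for 0. Of the 12369 tested genes with an interval, 26.1% were lower by that measure and 26.1% higher, 52.2% in all. The median log2 fold change was -0.35 over the 9 IGF genes and 0.01 over all tested genes.

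**Figure D3:**
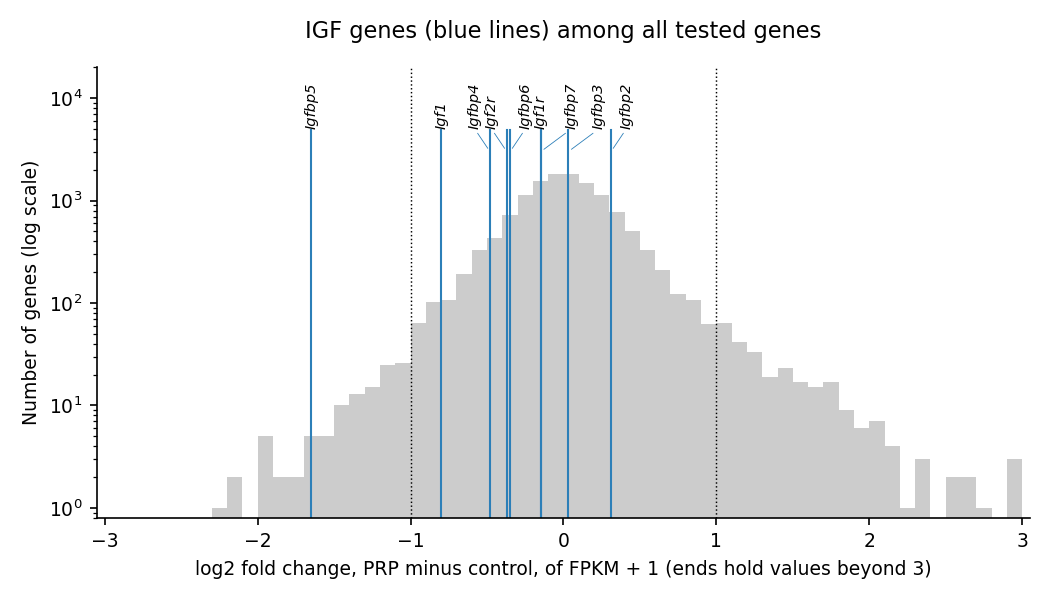
Number of genes (log axis) by log2 fold change of FPKM + 1, PRP minus control, for all 13401 tested genes in bins of 0.1, with blue lines at the 9 IGF genes and dotted lines at 2-fold. Igfbp5 at -1.65 lies outside the dotted lines, and the other 8 lie between -0.80 and 0.31.

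Summed over Igfbp2 to Igfbp7, the binding protein transcripts had 297 FPKM with PRP and 351 FPKM with vehicle, a ratio of 0.846. Igfbp6 and Igfbp7 made up 96.4% of that sum with PRP, and with vehicle the other 4 genes made up 4.99%. Igfbp7 alone held 64.0% against 60.0%, and Igfbp6 held 32.3% against 35.0%. The 4 lower genes, Igfbp2 to Igfbp5, summed to 10.8 FPKM with PRP and 17.5 FPKM with vehicle, a ratio of 0.617. Within the whole sum the share of Igfbp5 was 0.470% with PRP and 1.86% with vehicle. As FPKM divides by length and the Igfbp5 exons are long, its share of the reads of the 6 genes was larger, at 2.22% against 8.33%. The Igf1 level equalled 0.856% of the binding protein sum with PRP and 1.48% with vehicle. These are transcript levels and say nothing of the amount of protein or of binding.

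**Figure D4:**
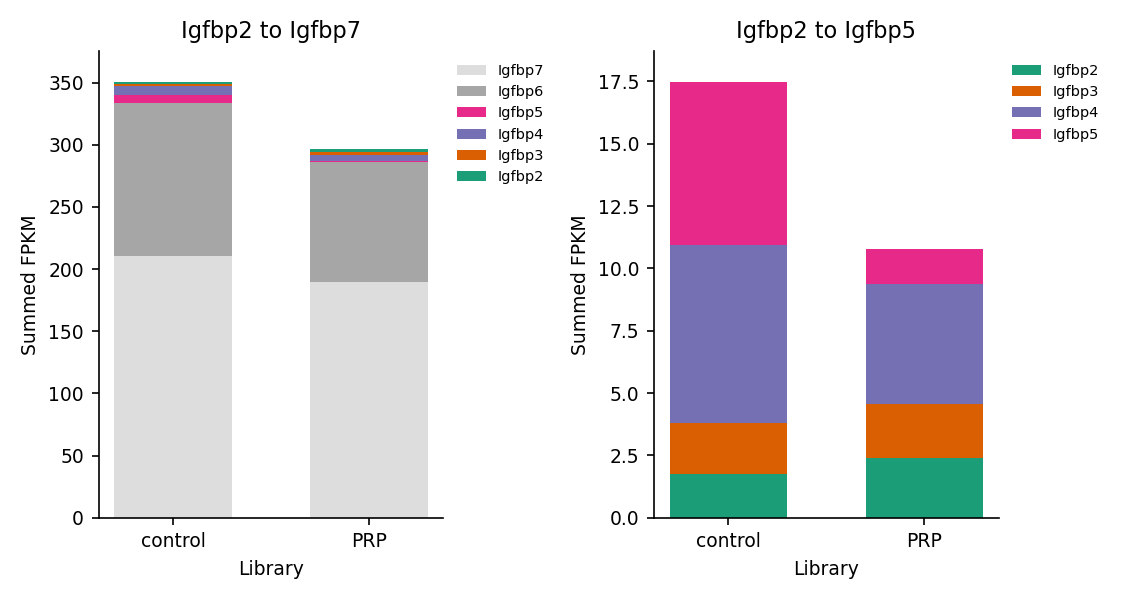
Stacked FPKM of the binding protein genes in the control and PRP libraries, with all 6 genes on the left and Igfbp2 to Igfbp5 alone on the right, on separate axes that start at 0. The left bars reach 351 and 297 and are mostly Igfbp7 and Igfbp6, and on the right the Igfbp5 segment goes from 6.54 to 1.39.

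Of 70 other genes of the pathway listed by role, 69 were found and 54 had a mean FPKM of at least 1. None of the 54 was at least 2-fold different, against 2.83% of tested genes. At least 1.5-fold different were 5, 2 lower and 3 higher in the PRP library, against 4.57% of tested genes lower and 6.15% higher. With a pseudocount of 0.1, 3 of them were past 2-fold (Pappa, Pappa2 and Ccn3), as were 739 of all 13401 tested genes. The median log2 fold change of the 54 was -0.08. Among the 7 tested proteases and inhibitors, the paired pappalysins differed in opposite directions. Pappa, which cleaves IGFBP4, had 2.21 FPKM with PRP and 4.55 FPKM with vehicle, a ratio of 0.485 (0.433 to 0.542). Pappa2, which cleaves IGFBP3 and IGFBP5, had 1.65 against 0.731 FPKM, a ratio of 2.26 (1.84 to 2.79). Pappa was 6.23 times the FPKM of Pappa2 in the control library (5.17 to 7.55) and 1.34 times in the PRP library (1.16 to 1.54). Igfbp4 and Igfbp5 were lower in the library with less Pappa and more Pappa2, and Igfbp3 was within counting error. These are transcript levels, and a link between the proteases and the binding proteins was not tested.

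Genes downstream of the receptors differed by less than the ligand. Of the 20 genes of PI3K, AKT and mTORC1, which carry the receptor signal to growth and metabolism, 15 were lower with PRP, against 49.1% of all tested genes. Their log2 fold changes ran from -0.52 to 0.29 around a median of -0.16. The interval lay below 1 for 12 of the 20 and above 1 for 4 (Pik3cb, Rheb, Eif4ebp1 and Gsk3b), against 26.1% of tested genes on each side. Of 10 tested receptor adaptors 3 had an interval below 1 (Shc1, Gab1 and Ptpn11) and 2 above (Irs2 and Sos1), near those shares of all genes, with log2 fold changes from -0.45 to 0.50. Insulin and IGF1 signalling holds FOXO factors out of the nucleus. Both tested FOXO genes, Foxo3 and Foxo4, were higher, with log2 fold changes of 0.17 and 0.18. Their intervals lay above 1, as did those of 26.1% of tested genes, and Foxo1 and Foxo6 were below the level for testing. Transcript levels give no measure of that signalling. The 4 genes of growth hormone input, the hormone that induces Igf1 in many tissues, had log2 fold changes from -0.13 to 0.28.

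The 7 tested relatives that share the IGFBP fold differed in both directions. Ccn3 had 4.92 FPKM with PRP and 10.7 FPKM with vehicle, a ratio of 0.461 (0.397 to 0.534). Ccn1, an immediate early matricellular gene, had 64.1 against 40.9 FPKM, a ratio of 1.57 (1.47 to 1.67), and Crim1, which encodes a membrane protein that binds BMPs, had 9.43 against 5.71 FPKM, a ratio of 1.65 (1.49 to 1.83).

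**Figure D5:**
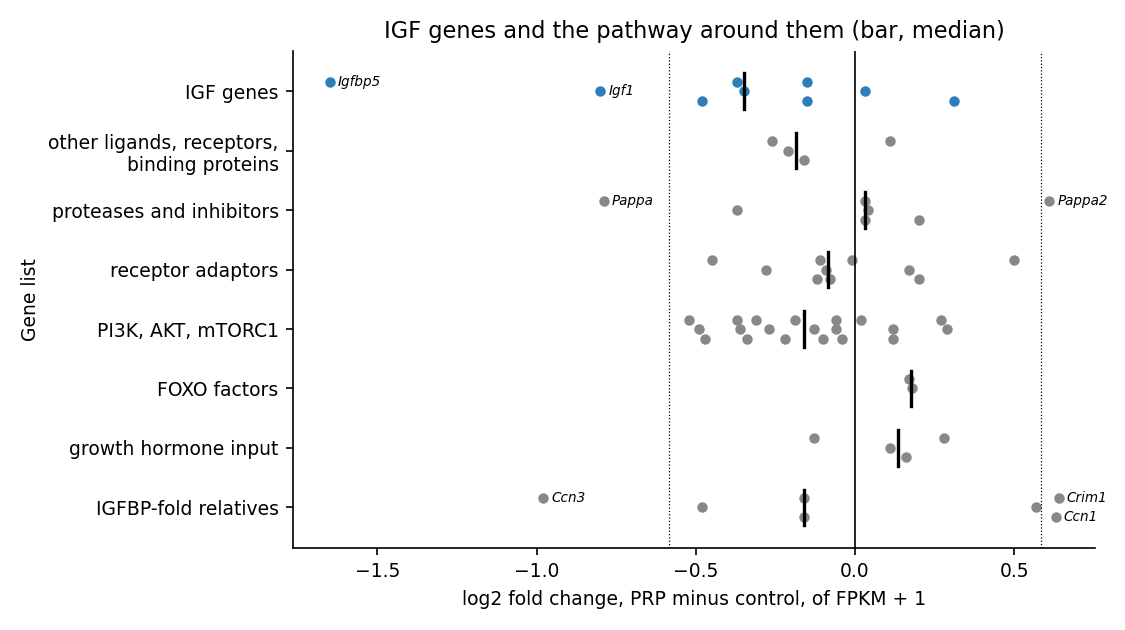
Log2 fold change of FPKM + 1, PRP minus control, for the 9 IGF genes (blue) and the tested genes of 7 pathway lists (grey), 1 point a gene, with black bars at list medians and dotted lines at 1.5-fold. Igfbp5 and Igf1 lie left of the dotted lines together with Pappa and Ccn3, and Pappa2, Crim1 and Ccn1 lie to the right.

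The identity and makeup of the cultures were read from marker genes. Of 10 FAP and matrix markers 9 were above the level for testing, and Lum was near 0 in both libraries, at 0.0815 and 0.0718 FPKM. All 9 were lower in the PRP library with intervals below 1, against 26.1% of tested genes with an interval. The list summed to 480.5 FPKM with PRP and 732 FPKM with vehicle. Dpt, for dermatopontin, had 18.8 against 50.2 FPKM and Col1a1 had 119 against 219 FPKM, whereas Pdgfra and Ly6a, which encode FAP surface markers, had 19.8 against 28.0 and 59.9 against 66.4 FPKM. Lower FAP markers thus stood beside the 7 lower IGF genes, and their part in these differences was not tested. In bulk RNA fewer cells of a type cannot be told apart from less RNA per cell. Defining markers of other cell types were near 0, as Pecam1 and Cdh5 of endothelium had at most 0.188 FPKM, Ptprc of leukocytes at most 0.0192, Rgs5 of pericytes at most 0.296, and Pax7 of muscle stem cells 0 in both libraries. The 10 listed endothelial markers summed to 11.2 FPKM with PRP and 7.79 with vehicle, and of the 3 tested Kdr (ratio 2.82, 2.43 to 3.28) and Tek (1.33, 1.14 to 1.55) were higher and Flt1 (0.685, 0.592 to 0.792) was lower. The 12 macrophage markers summed to 11.5 FPKM in both libraries, although the 2 tested differed in opposite directions, Cd68 with a ratio of 1.98 (1.41 to 2.82) and Lyz2 with one of 0.648 (0.512 to 0.820). The 8 pericyte and smooth muscle markers summed to 22.6 against 16.5 FPKM, of which Myh11 had 16.7 against 9.86, a ratio of 1.69 (1.58 to 1.81). The 10 myogenic markers, 9 of them found, summed to 43.2 against 27.3 FPKM, and of the 4 tested Tnnc1 (ratio 2.43, 2.02 to 2.93) and Acta1 (1.36, 1.17 to 1.57) were higher. The 10 adipocyte markers summed to 141 against 146 FPKM, and of the 7 tested 2 had an interval above 1 (Pparg and Fabp4) and 1 had an interval below 1 (Lpl, 67.4 against 83.3 FPKM). The part of these cell types in the differences of the IGF genes was not tested.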

How the data were processed

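RNA was measured in 2 libraries, 1 PRP and 1 control, grouped by the sample titles. TRIzol extraction and a stranded mRNA kit were used, per the labels. The submitters' processing notes name fastp 0.23.4, STAR 2.5.3a, featureCounts and mm10. The annotation release, the strand setting and the step from reads to FPKM are not given in the sources used here. The deposited values are FPKM, which the authors scaled by exon length and library depth.

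A pseudocount of 1 was added to FPKM, and the log2 of the control library was subtracted from that of the PRP library, which understates changes of low genes. Genes were tested from a mean FPKM of 1 upwards. With exon lengths of GENCODE M21, FPKM came out as whole reads (within 0.001 reads) in both libraries for 26406 of 28160 genes (93.8%), the 9 IGF genes included, and gave depths of 40120843 (PRP) and 34139741 (control) reads. Even read numbers were in excess, 79.3% and 80.3% of genes with up to 8 reads, as when the 2 mates of a fragment are counted singly. Ratios therefore have exact Clopper-Pearson 95% intervals, and levels exact Poisson ones, on reads divided by 2. A gene at 0 reads was given the limit of 3 fragments. Intervals cover counting error only and ignore PCR duplicates. No count test was run.

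The IGF genes and gene lists were chosen with earlier results of these data known. Named are the 9 genes, Igf2, Insr, Igfbp1 and Igfbpl1, and other pathway genes past 1.5-fold. Other genes, as Ins1 and the markers shown, were chosen after their values were seen. With 2 libraries, likeness of pattern between genes cannot be ranked, so the place of a gene among all tested genes is given. The alternatives used pseudocounts of 0.1 or 5, dropped the filter or raised it to a mean of 5, and took 3 rescalings, a 1.5-fold threshold and shares of reads. Python 3.11.15, NumPy 2.4.6, pandas 2.3.3 and SciPy 1.17.1 were used, and the procedure was tested on simulated data. The microRNA match search is given for 8 of the 9 genes, and 1 result of it is not reported here.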

Additional observations from a re-analysis of the deposited data

How the results depend on the processing

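No paired analysis was possible because there was a single library for PRP and for control, and neither could be left out. The 9 IGF genes kept the sign of their log2 fold change in all 58 values under the alternatives. Their median, -0.35, ranged from -0.39 to -0.30, and the median of all genes stayed between -0.02 and 0.01. Igfbp5 ranged from -2.15 at a pseudocount of 0.1 to -0.85 at 5, where Igf1 stood at -0.43. The 1 IGF gene past 2-fold (Igfbp5) became 0 at a pseudocount of 5, 0 of the 4 genes left by a minimum mean of 5 FPKM (Igfbp5 and Igf1 are below it), and 2 at the 1.5-fold threshold. The 7 genes below 0 became 4 of 4 under that minimum. The pathway count of 0 became 3 at a pseudocount of 0.1, 1 with both libraries rescaled to an equal sum, 1 with that sum taken without the 50 top genes and mitochondrial ones, and 5 at 1.5-fold. The count of all genes, 379, became 739 and 113 at pseudocounts of 0.1 and 5, 210 under the minimum of 5 FPKM, 596 and 638 after these rescalings and 1436 at 1.5-fold. The rescalings raise FPKM against a fixed pseudocount. Depth limits Igfbp2 and Igfbp3 most, and neither cultures nor libraries were repeated here.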
